A study of Mus musculus with 19 samples.

Results

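The potassium channel genes of the mouse suprarenal aorta are the subject of this report. They are the genes of the deposited expression table whose symbol begins with Kcn, without the long non-coding RNA Kcnq1ot1, that reached a normalized count of at least 10 in at least 4 of the 19 mice. Of 64 such symbols in a table of 20408 genes, 42 met that minimum, and these 42 are described by channel class. The other 22 stayed below it and were not tested. A normalized count is the number of reads on a gene divided by a size factor that sets the libraries to a common depth.

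RNA from the suprarenal aorta was sequenced in male mice on a chow diet 24 h after an osmotic pump began to deliver saline or angiotensin II (Ang II, a vasoconstrictor peptide) under the skin. All mice lacked ApoE, carried SMA-CreERT2 (a tamoxifen-inducible Cre recombinase driven by the smooth muscle actin promoter) and had received tamoxifen from 8 weeks of age, with a rest before the pump was implanted. The mice labelled KO also carried floxed Ikbkb, the gene of the kinase IKKβ that activates NF-κB. They are called IKKβ-/-, although Cre acted in smooth muscle cells only, and their wild-type littermates are called IKKβ+/+. There were 5 saline-infused and 5 Ang II-treated IKKβ+/+ mice, and 4 saline-infused and 5 Ang II-treated IKKβ-/- mice. The labels give the dose of Ang II as a range of 500 to 1000 ng/min/kg, and the methods give 1000 ng/min/kg for RNA-seq. Mice are named by the numbers in the labels.

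Potassium channels let potassium leave the cell and so hold the membrane of arterial smooth muscle at a negative potential. When they open, voltage-gated calcium channels close and the vessel relaxes. Voltage-gated channels open on depolarization and take up auxiliary subunits (Kcnab, Kcne and Kcnip). Their pore subunit genes are Kcna to Kcnd, Kcnf to Kcnh, Kcnq, Kcns and Kcnv. These include silent subunits such as Kcns3 and Kcnf1, which open no pore of their own. Calcium-activated channels open as calcium rises, and include the large-conductance channel BK (Kcnma1 with the β1 subunit Kcnmb1) and the SK and IK channels of the endothelium (Kcnn). Inward rectifiers (Kcnj) include the KATP pore subunits. Tandem-pore channels (Kcnk, the K2P family) carry a background current.

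Depth ranged from 11382573 to 19906694 reads on genes per mouse. Ikbkb, the targeted gene, had 533.3 ± 78.9 normalized counts in IKKβ-/- (SD, n = 9) and 699.7 ± 66.8 in IKKβ+/+ mice (SD, n = 10), a fall of 23.8% with p = 0.000152 in an exact permutation test (two-sided). The highest of the 9 IKKβ-/- mice was the only 1 to reach the IKKβ+/+ range. Smooth muscle markers were high in every mouse, with a sum of 309864 to 647800 over 8 genes. Several libraries stood apart by markers of other cells. In the Ang II-treated IKKβ+/+ mouse X2356 the 8 neuron markers summed to 10295 against 980.5 to 2530 in the other mice, and its dopamine β-hydroxylase transcript Dbh reached 1674. Schwann cell markers summed to 2316 in the Ang II-treated IKKβ-/- mouse X2386, 2004 in X2356 and 1674 in the saline-infused IKKβ-/- mouse X2406, against 336.6 to 1304 in the others. Adipocyte markers summed to 10146 and 8058 in the Ang II-treated IKKβ-/- mice X2384 and X2385, against 102.7 to 2747 in the others. Each group held its own run of mouse numbers and no batch is given, so a batch cannot be told apart from the groups. In bulk tissue, fewer cells of a type and less RNA per cell cannot be told apart either.

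Among the 42 genes were 17 pore subunits of voltage-gated channels, 7 of their auxiliary subunits, 5 pore subunits of the calcium-activated and Slo families, 1 auxiliary subunit of BK, 6 inward rectifiers and 6 tandem-pore channels. Per kilobase of exon, the BK subunit Kcnmb1 stood highest with 913.9 normalized counts per kb (mean of 19 mice). It was followed by the KATP pore gene Kcnj8 with 339.7 per kb, the Kvβ1 gene Kcnab1 with 338.4 per kb, Kcne4 with 266.4 per kb and Kcnh2, the hERG channel, with 266.1 per kb. The ranges over mice of these last 4 overlapped. Kcnk3 (67.2 per kb), the BK pore Kcnma1 (66.5 per kb), the Kv1.5 gene Kcna5 (65.9 per kb), the sodium-activated Kcnt2 (57.5 per kb) and Kcnk6 (55.6 per kb) lay close together with overlapping ranges. Kcnj10 (2.49 per kb) and Kcnh1 (2.75 per kb) were the lowest. The exon length merges all annotated exons of a gene, and this order depends on it. Kcnma1 has 16976 such bases, Kcnh2 4845 and Kcna5 2862. Their mean normalized counts over the 19 mice, not divided by length, were 1128, 1289 and 188.5.

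**Figure D1:**
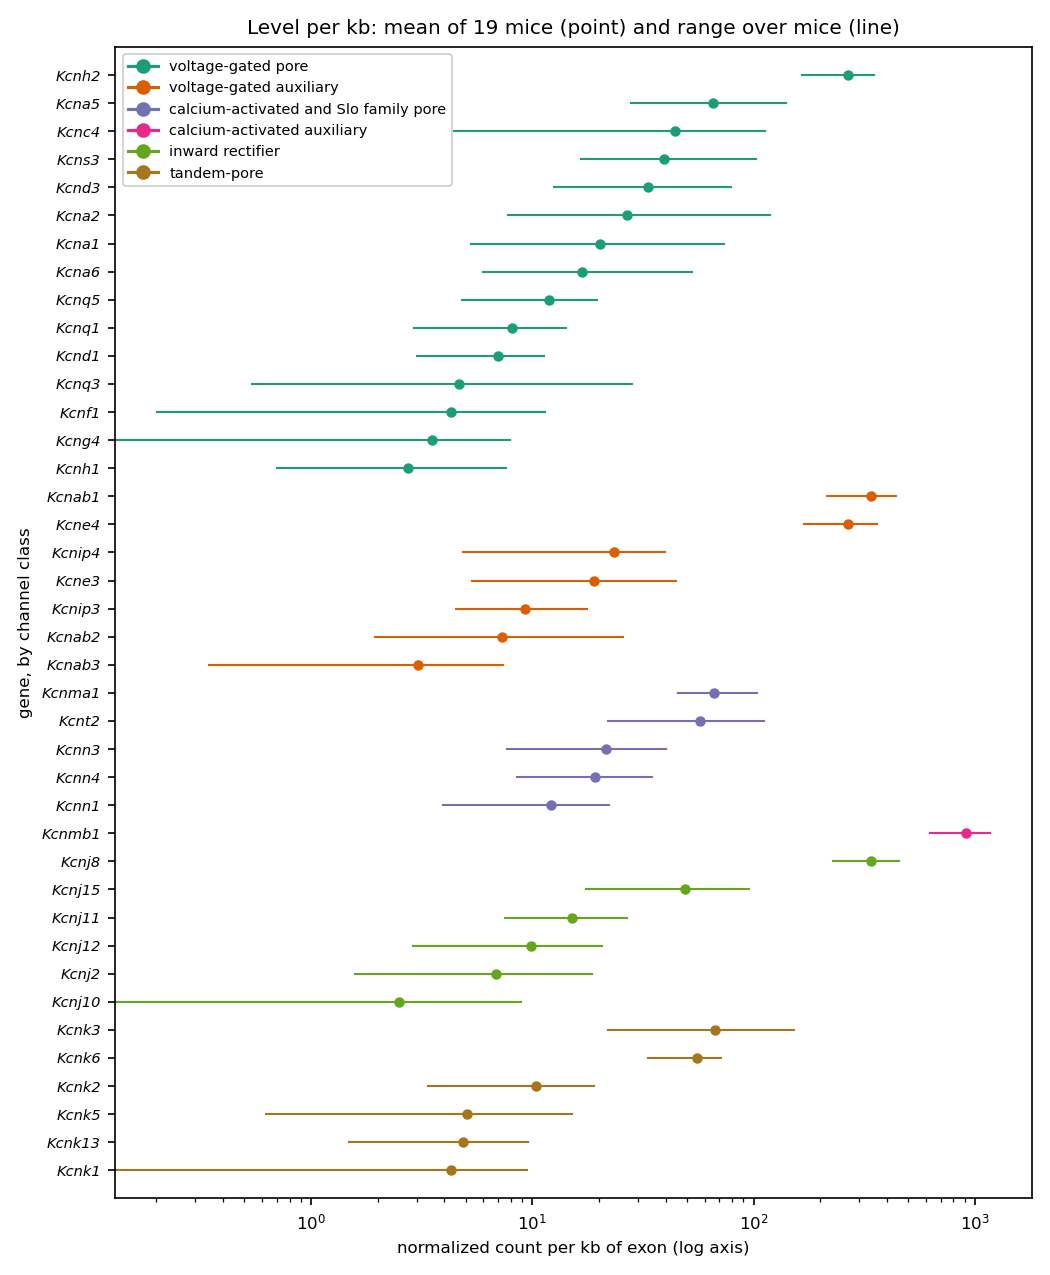
Normalized counts per kb of exon (log axis) for 40 of the 42 potassium channel genes by class, with the mean of 19 mice as a point and the range over mice as a line. Kcnmb1 is highest with 913.9 per kb, and the lines of Kcng4, Kcnj10 and Kcnk1 run off the left edge because some mice are at 0.

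Some of the genes with the highest levels per kb had close group means. Kcnmb1 had 3823 ± 463 normalized counts in saline-infused and 4076 ± 596 in Ang II-treated IKKβ+/+ mice (SD, n = 5 each), and 3737 ± 613 (n = 4) and 3667 ± 694 (n = 5) in IKKβ-/- mice. Kcnma1 had 1126 ± 202 and 1103 ± 128 in the same IKKβ+/+ groups, and 1156 ± 238 and 1133 ± 427 in the IKKβ-/- groups. In Kcnh2 the group means ran from 1206 to 1380. None of these 3 genes passed the test in any comparison. Their lowest adjusted p-values (limma, Benjamini-Hochberg) were 0.612 for Kcnmb1, 0.878 for Kcnma1 and 0.58 for Kcnh2, which does not show that the groups were equal.

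The question of the first comparison is what 24 h of Ang II did to these genes in IKKβ+/+ mice. A gene was called where limma gave an adjusted p below 0.1 with a change of more than 1.2-fold, with log2 of the normalized count plus 1 as the scale of every fold change given here. Of the 42 genes, 7 were called, against 8.66% of the 14845 genes tested. The 6 that fell (background 4.33%) were the inward rectifiers Kcnj2 and Kcnj11, the endothelial Kcnn3 and Kcnn4, the Kv7.1 gene Kcnq1 and the β-subunit Kcnab1. The 1 that rose (background 4.33%) was Kcnk3. The median log2 fold change over the 42 genes was -0.14, beside 0.01 over all genes tested, with 28 genes below 0 and 14 above. At an unadjusted p under 0.05 there were 11 of the 42, against 20.3% of all genes. By class, 1 of 17 voltage-gated pore genes, 1 of 7 auxiliary genes, 2 of 5 calcium-activated and Slo pore genes, 2 of 6 inward rectifiers and 1 of 6 tandem-pore genes were called.

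In IKKβ-/- mice the same comparison called 5 of the 42 genes (background 5.29%). Kcnj2, Kcnab1 and the silent Kv subunit Kcns3 fell (background 2.69%), and the inward rectifiers Kcnj8 and Kcnj10 rose (background 2.59%). The median log2 fold change was -0.01 over the 42 genes, with 21 on each side of 0. At an unadjusted p under 0.05 there were 17 of the 42 (background 17.8%), 8 of them voltage-gated pore genes. By class, 1 of 17 voltage-gated pore genes, 1 of 7 auxiliary genes and 3 of 6 inward rectifiers were called, and none of the calcium-activated or tandem-pore genes.

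**Figure D2:**
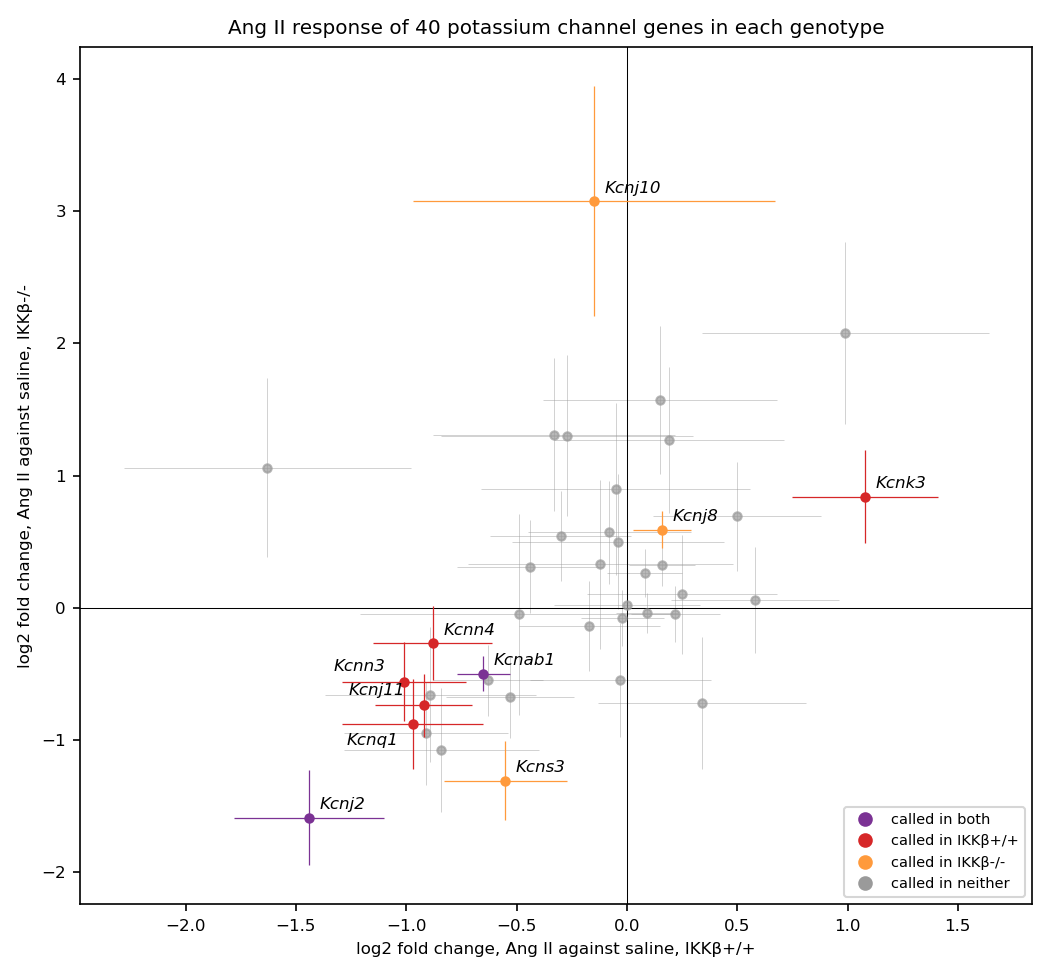
Log2 fold change of Ang II against saline in IKKβ+/+ mice (x axis) and in IKKβ-/- mice (y axis) for 40 of the 42 genes, with bars for the standard error and colour for the genotype in which a gene was called. Kcnj2 lies lowest on the y axis with -1.44 and -1.59, Kcnab1 is the other gene called in both, and Kcnj10 is highest on the y axis with 3.08.

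Kcnj2 and Kcnab1 were called in both genotypes, in groups that share no mouse. Kcnj2 encodes Kir2.1, the strong inward rectifier that small arteries use to sense extracellular potassium (chr11:111066164-111076821 of GRCm38, plus strand). Its normalized counts were 44.6, 36.5, 66.1, 51.3 and 64.6 in saline-infused and 17.1, 19.2, 26.3, 8.60 and 26.8 in Ang II-treated IKKβ+/+ mice. They were 67.6, 61.1, 100.9 and 25.4 with saline and 15.7, 18.3, 24.3, 19.3 and 15.4 with Ang II in IKKβ-/- mice. In both genotypes every Ang II-treated mouse lay below every saline-infused mouse, although in IKKβ-/- mice the low saline mouse X2409 (25.4) came close to the Ang II-treated X2384 (24.3). The log2 fold change was -1.44 ± 0.34 (SE, adjusted p = 0.0217) in IKKβ+/+ and -1.59 ± 0.36 (adjusted p = 0.0217) in IKKβ-/- mice, and both calls held without any 1 of the 19 mice.

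Kcnab1 encodes Kvβ1, a cytosolic subunit that binds Kv1 channels and speeds their inactivation (chr3:64949196-65378223, plus strand). It was the highest of the voltage-gated subunits per kb of exon. The counts were 3743, 3739, 3320, 3542 and 2814 in saline-infused and 1849, 2193, 2191, 2588 and 2085 in Ang II-treated IKKβ+/+ mice, with no overlap. They were 3773, 3255, 3756 and 3588 in saline-infused and 2192, 3258, 2033, 2702 and 2632 in Ang II-treated IKKβ-/- mice, where X2383 among the Ang II-treated mice reached the lowest saline mouse. The log2 fold change was -0.65 ± 0.12 (SE, adjusted p = 0.00693) in IKKβ+/+ and -0.50 ± 0.13 (adjusted p = 0.0381) in IKKβ-/- mice. The difference between the genotypes was 0.15 ± 0.18 (adjusted p = 0.76). The IKKβ+/+ call held without any 1 mouse. The IKKβ-/- call was lost without X2401 or without X2406 (adjusted p up to 0.105). It was also lost with only the groups compared and at a fold change threshold of 1.5. Exons of Kcnab1 overlap A330015K06Rik on the other strand, which averaged 1.67 normalized counts.

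Promoter sequences from RefSeq (GRCm38.p6, 250 bases before to 50 after a transcription start) were at hand for 8 of the 11 genes called in any comparison, as 11 promoters. Kcnj11, Kcnk3 and Kcnq1 were not matched. Both strands were searched for the CArG box of serum response factor, the κB motif of NF-κB, the E-box CACGTG and the AP-1 letters TGANTCA. Shown are the promoters of the genes called in both genotypes and those of called genes that held a κB motif, with matches in capitals.
Kcnj2 (GRCm38.p6 chr11:111065914-111066213, plus strand): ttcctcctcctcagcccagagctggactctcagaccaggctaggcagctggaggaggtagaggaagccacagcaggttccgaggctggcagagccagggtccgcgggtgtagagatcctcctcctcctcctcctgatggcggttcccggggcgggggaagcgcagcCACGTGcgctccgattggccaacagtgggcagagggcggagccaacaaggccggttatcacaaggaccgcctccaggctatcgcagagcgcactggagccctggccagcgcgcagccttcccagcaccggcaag
Kcnab1, the first start (GRCm38.p6 chr3:64948962-64949261, plus strand): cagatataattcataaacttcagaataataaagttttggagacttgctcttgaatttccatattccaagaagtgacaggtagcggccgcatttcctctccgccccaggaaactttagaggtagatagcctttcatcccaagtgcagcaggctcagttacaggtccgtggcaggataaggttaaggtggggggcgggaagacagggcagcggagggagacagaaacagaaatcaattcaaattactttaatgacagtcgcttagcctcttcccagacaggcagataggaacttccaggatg
Kcnab1, the second start (GRCm38.p6 chr3:65108764-65109063, plus strand): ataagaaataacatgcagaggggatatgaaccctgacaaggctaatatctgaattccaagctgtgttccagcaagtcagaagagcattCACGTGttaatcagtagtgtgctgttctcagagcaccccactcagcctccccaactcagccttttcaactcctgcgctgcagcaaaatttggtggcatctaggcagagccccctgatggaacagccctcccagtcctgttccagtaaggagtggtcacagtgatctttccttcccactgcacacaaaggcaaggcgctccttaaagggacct
Kcnab1, the third start (GRCm38.p6 chr3:65187853-65188152, plus strand): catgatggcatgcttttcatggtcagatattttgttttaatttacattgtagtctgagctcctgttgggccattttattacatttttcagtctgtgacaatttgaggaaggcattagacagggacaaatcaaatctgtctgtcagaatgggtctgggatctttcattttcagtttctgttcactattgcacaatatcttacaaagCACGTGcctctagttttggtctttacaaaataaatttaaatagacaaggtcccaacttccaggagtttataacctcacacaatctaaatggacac
Kcnn4 (GRCm38.p6 chr7:24370013-24370312, plus strand): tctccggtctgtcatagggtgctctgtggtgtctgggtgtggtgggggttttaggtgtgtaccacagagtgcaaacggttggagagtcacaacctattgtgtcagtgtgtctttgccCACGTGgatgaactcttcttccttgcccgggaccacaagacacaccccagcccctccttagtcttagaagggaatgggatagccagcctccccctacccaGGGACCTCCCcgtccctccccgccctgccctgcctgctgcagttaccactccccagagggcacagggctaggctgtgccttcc
Kcns3, the first start (GRCm38.p6 chr12:11150324-11150623, minus strand): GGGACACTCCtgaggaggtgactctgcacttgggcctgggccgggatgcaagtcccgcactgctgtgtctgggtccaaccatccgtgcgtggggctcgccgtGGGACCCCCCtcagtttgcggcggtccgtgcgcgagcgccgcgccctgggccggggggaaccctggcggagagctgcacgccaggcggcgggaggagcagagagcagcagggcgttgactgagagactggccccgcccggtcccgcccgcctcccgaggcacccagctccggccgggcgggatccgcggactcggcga
CACGTG was found in 4 of the 11 promoters, those of Kcnj2 (first base 84 bases before the start), Kcnn4 (133 before) and the other two starts of Kcnab1 (162 and 45 before), against 7.15% of 32851 promoters of the same length. The κB motif was found in 2, Kcnn4 once (33 before) and the first start of Kcns3 at 2 places (250 and 148 before), against 8.46% of all. No CArG box (1.63% of all) and no TGANTCA (7.81% of all) lay in the 11 windows. Counted by gene, CACGTG lay in 3 of the 8 and the κB motif in 2. A match is a run of letters in a short window, and no binding was measured here.

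Kcnj11 encodes Kir6.2, a KATP pore subunit. It had 98.5, 60.3, 59.0, 63.6 and 70.1 normalized counts in saline-infused and 30.0, 38.4, 46.1, 27.7 and 41.8 in Ang II-treated IKKβ+/+ mice. The groups did not overlap, and X2370 was far above the other saline mice. Its log2 fold change was -0.92 ± 0.22 (adjusted p = 0.0269), and the call held without any 1 mouse. The IKKβ-/- counts were 89.8, 53.7, 70.3 and 83.5 with saline and 42.5, 62.7, 46.5, 40.1 and 30.9 with Ang II. There the change was -0.74 ± 0.24 with an adjusted p of 0.102, just outside the threshold, and the difference between the genotypes was 0.18 ± 0.33 (adjusted p = 0.85).

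Kcnn3 and Kcnn4 encode the SK3 and IK channels, through which endothelial calcium hyperpolarizes the wall. Kcnn3 had 282.8, 293, 418.5, 277.2 and 409.7 normalized counts in saline-infused and 109.2, 171.8, 215, 146.2 and 198.8 in Ang II-treated IKKβ+/+ mice. Kcnn4 had 122.5, 150.8, 149.8, 115.8 and 105.2 with saline and 71.8, 88.6, 84.5, 57.3 and 49.7 with Ang II. Neither gene overlapped between the groups. The log2 fold changes were -1.01 ± 0.28 for Kcnn3 (adjusted p = 0.0473) and -0.88 ± 0.27 for Kcnn4 (adjusted p = 0.0641). Leaving out 1 mouse at a time, the call of Kcnn3 was lost for 4 mice (adjusted p up to 0.147) and that of Kcnn4 for 7 mice (adjusted p up to 0.164). As for IKKβ-/- mice, Kcnn3 had 312.7, 161.2, 162.1 and 288.8 with saline and 80.4, 114.3, 194.4, 150.9 and 277.6 with Ang II, and Kcnn4 had 76.2, 178, 109.9 and 68.9 with saline and 115.5, 43.7, 97.2, 94.7 and 87.4 with Ang II. Both overlapped there and neither was called. The difference between the genotypes was 0.45 ± 0.41 for Kcnn3 (adjusted p = 0.69) and 0.62 ± 0.39 for Kcnn4 (adjusted p = 0.55). The sum of the 6 endothelial markers in IKKβ+/+ mice was 18603 to 32807 with saline and 10620 to 21302 with Ang II. None of the 6 was called, but 4 had fold changes below 0 and 2 above, with a median of -0.57. At an unadjusted p under 0.05 (limma) there were 3 of the 6 (background 20.3%). They were Vwf (-0.92), Tie1 (-0.76) and Pecam1 (-0.62). With the endothelial score in the fit, an alternative added after seeing the data, Kcnn3 stayed called (-0.93, adjusted p = 0.0969) and Kcnn4 did not (-0.61, adjusted p = 0.127). What part the endothelium had in the values of the tissue was not tested.

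Kcnq1 and Kcnk3 were called in IKKβ+/+ mice, in groups that overlapped. Kcnq1, the Kv7.1 channel, had 31.9, 54.8, 52, 40.8 and 58.2 normalized counts with saline and 36.4, 38.4, 14.3, 20.1 and 16.9 with Ang II, with X2370, X2350 and X2352 in the shared range. Its log2 fold change was -0.97 ± 0.32 (adjusted p = 0.0872), and leaving out 1 mouse at a time lost the call for 9 of the 19 mice (adjusted p up to 0.193). The call was also lost with edgeR, without the filter on low values, and with the smooth muscle, endothelial or neuron and Schwann cell score. The IKKβ-/- mice had 41.5, 43.2, 32.4 and 37.7 with saline and 34.2, 11.9, 29.6, 16.1 and 18 with Ang II, a change of -0.88 ± 0.34 (adjusted p = 0.172). Kcnq1 shares exon sequence with Kcnq1ot1 on the other strand, which averaged 619.4 normalized counts. The libraries were stranded, but the sources used here do not say whether the counting used strand, so this value is uncertain.

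Kcnk3 encodes TASK-1, an acid-sensitive background channel, and was the 1 gene called higher in IKKβ+/+ mice. It had 246.9, 96.1, 87.2, 127.2 and 137.1 normalized counts with saline and 429.5, 154.8, 186.5, 266.6 and 471.1 with Ang II. The saline mouse X2370 lay within the Ang II range, and the other 4 saline mice lay below it. On the log2 scale it changed by 1.08 ± 0.33 (adjusted p = 0.0694), and leaving out 1 mouse at a time lost the call for 7 mice (adjusted p up to 0.202). The Kcnk3 call was also lost with quality weights and with the smooth muscle or endothelial score. The IKKβ-/- values were 126.4, 225.4, 306.3 and 223.5 with saline and 605.3, 271.4, 497.6, 316.3 and 299.5 with Ang II, a change of 0.84 ± 0.35 (adjusted p = 0.217). Its exons overlap Gm9899 on the other strand (mean 10.4 normalized counts).

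**Figure D3:**
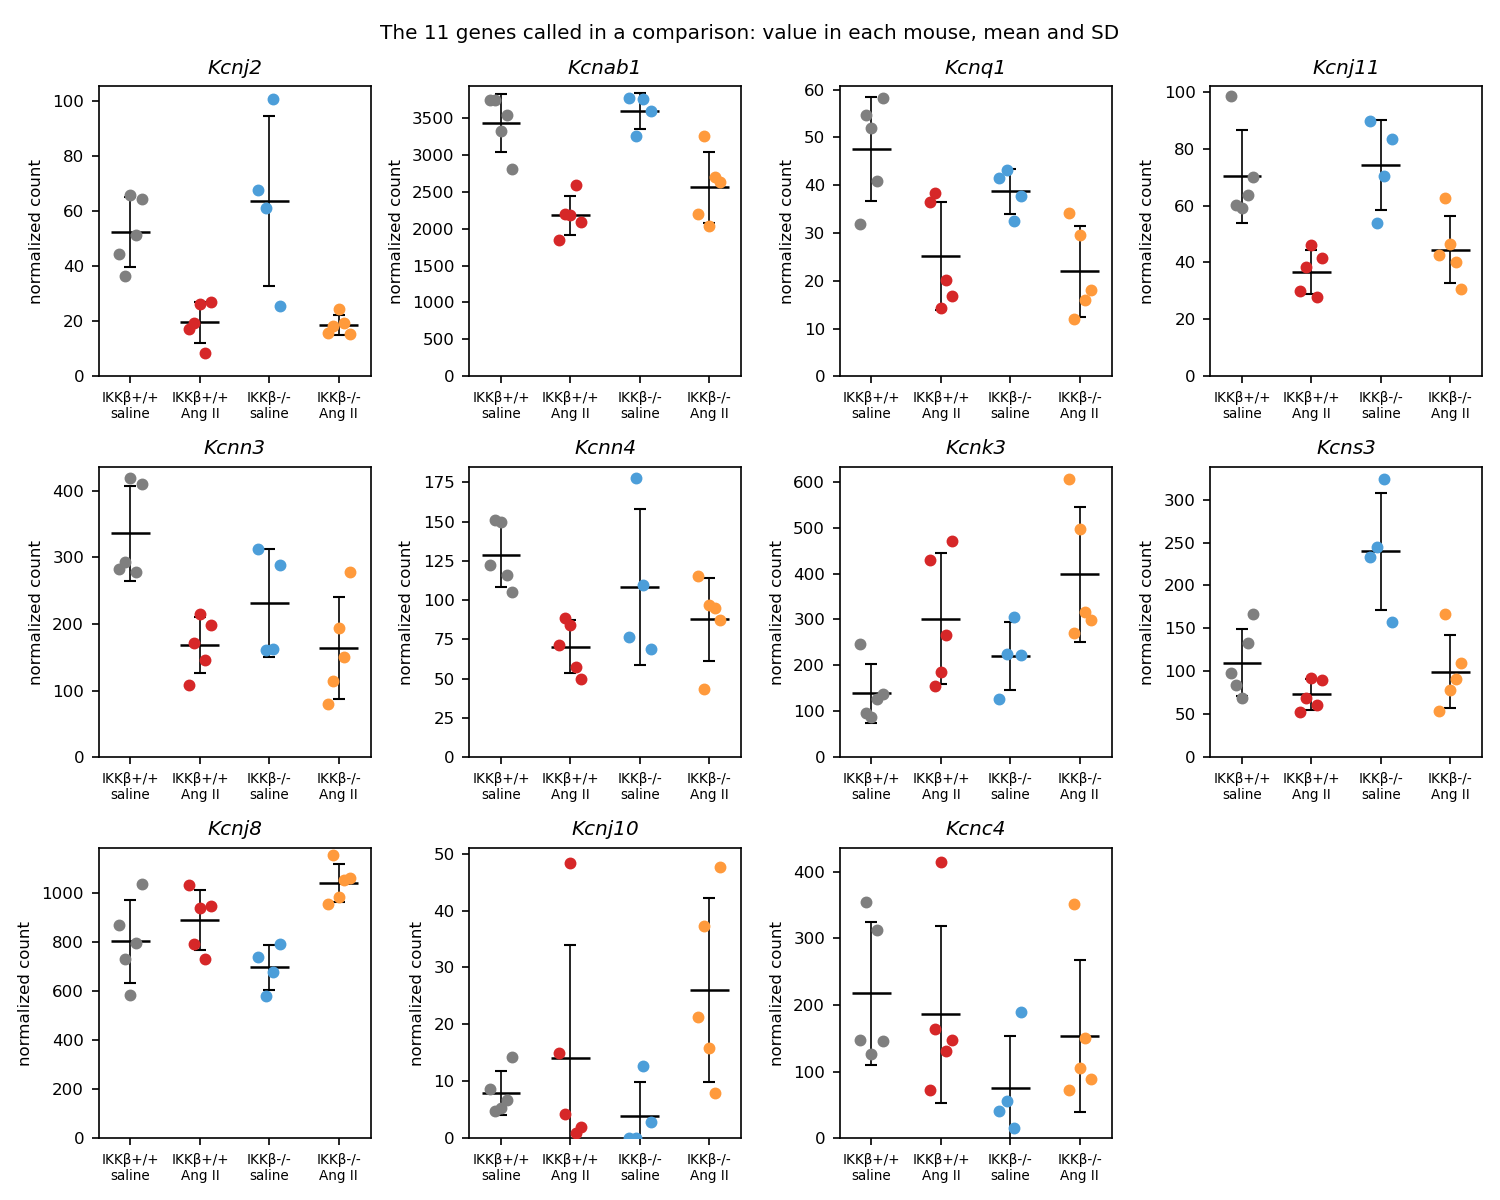
Normalized count in each mouse, with mean and SD, for the 11 genes called in any comparison, in the 4 groups (n = 5, 5, 4 and 5), with linear axes from 0 at which the SD bars of Kcnj10 and Kcnc4 are cut. In Kcnj2, Kcnj11, Kcnn3, Kcnn4 and Kcnab1 every Ang II-treated IKKβ+/+ mouse lies below every saline-infused one, and in Kcnj8 every Ang II-treated IKKβ-/- mouse lies above every saline-infused one.

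In the IKKβ+/+ groups 6 of the 42 genes did not overlap, all lower with Ang II and 5 of them called (Kcnj2, Kcnj11, Kcnn3, Kcnn4 and Kcnab1), against 8.42% of all genes tested in either direction. In IKKβ-/- mice there were 3 (background 5.29%), Kcnj2 lower and Kcnj8 and Kcnf1 higher. Kcnf1, a silent Kv subunit, had 0.965, 9.48, 7.21 and 4.35 with saline and 14.8, 35.7, 31.7, 30.5 and 10.3 with Ang II, and its adjusted p was 0.112.

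The calls in IKKβ+/+ mice stood beside a shift of the smooth muscle markers. Their sum ran from 334569 to 446231 with saline and from 464324 to 647800 with Ang II, with no overlap, and 3 of 8 (Cnn1, Tagln and Des) were called higher. Kcnab1 and Kcnj2 thus had lower counts in the IKKβ+/+ mice whose smooth muscle markers were higher. Both genes also fell in IKKβ-/- mice, where 7 of the 8 markers had fold changes below 0 with Ang II (median -0.21, none called). With the score of these markers as a covariate, all 5 calls in IKKβ-/- mice stayed. In IKKβ+/+ mice 1 of the 7 calls was left. Kcnab1 was then at -0.77 (adjusted p = 0.0214) and Kcnj2 at -0.84 (adjusted p = 0.279). Kcnj11 (-0.90), Kcnk3 (1.01) and Kcnq1 (-1.01) kept folds near those above but missed the threshold (adjusted p = 0.165, 0.284 and 0.26), and Kcnn3 and Kcnn4 were at -0.75 and -0.70 (adjusted p = 0.327 and 0.348). Of 4 skeletal muscle markers, Ckm was called higher, and of 4 neuron markers tested, Uchl1. What part these shifts had in the calls was not tested. Without X2356 and X2386 (left out together after seeing the data), 8 of the 42 genes were called in IKKβ+/+ mice and 5 in IKKβ-/- mice. The 5 fibroblast markers had 1 called lower (Lum), and their sum was 57224 to 75508 with saline and 22761 to 72664 with Ang II.

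Kcns3 encodes Kv9.3, which opens no pore of its own and modifies other Kv channels. It had 233.6, 244.4, 324.3 and 157.5 normalized counts in saline-infused IKKβ-/- mice and 53.6, 166.7, 78.2, 91.5 and 109.3 in Ang II-treated IKKβ-/- mice. X2383 overlapped X2409, and the rest were apart. In IKKβ+/+ mice it had 97.8, 84.2, 69.6, 132.9 and 166.6 with saline and 52.5, 69.4, 92.1, 61.2 and 90.5 with Ang II. The saline-infused IKKβ-/- mice stood above the other 3 groups, with X2409 within the range of saline-infused IKKβ+/+ mice. With Ang II the log2 fold change was -1.31 ± 0.30 (adjusted p = 0.0227) in IKKβ-/- mice, a call that held without any 1 mouse, and -0.55 ± 0.28 (adjusted p = 0.286) in IKKβ+/+ mice. Set against each other, the effects differed by -0.76 ± 0.41 (adjusted p = 0.49).

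Kcnj8 encodes Kir6.1, the KATP pore subunit of vascular smooth muscle and pericytes. It had 738.3, 579.4, 675.6 and 793.2 normalized counts in saline-infused and 954.7, 1154, 982.6, 1053 and 1062 in Ang II-treated IKKβ-/- mice, with no overlap. In IKKβ+/+ mice it had 867.2, 728.8, 583.3, 795.6 and 1036 with saline and 1031, 793, 940.1, 731.9 and 946.3 with Ang II, which overlapped over most of their range. The log2 fold change was 0.59 ± 0.14 (adjusted p = 0.0279) in IKKβ-/- mice, held without any 1 mouse, and 0.16 ± 0.13 (adjusted p = 0.53) in IKKβ+/+ mice. The difference of 0.42 ± 0.19 did not pass (adjusted p = 0.43). Its regulatory partner Abcc9 (SUR2) was not called in any comparison, with group means between 3908 and 5206.

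Kcnj10, the Kir4.1 channel of glia, was near the lower limit of measurement. It had 0, 0, 12.6 and 2.90 normalized counts in saline-infused and 21.3, 37.3, 15.9, 8.03 and 47.6 in Ang II-treated IKKβ-/- mice, with X2385 below X2406. On the log2 scale the change was 3.08 ± 0.87 (adjusted p = 0.0604), and 2 of the 4 saline values were at 0. The call was lost without X2386, X2401 or X2403 (adjusted p up to 0.173). It was also lost with edgeR, with only the groups compared and with the adipocyte score as a covariate. In IKKβ+/+ mice it had 8.65, 4.76, 5.29, 6.65 and 14.3 with saline and 15, 4.27, 48.3, 0.955 and 1.99 with Ang II, with X2356 far above the other 9 mice. The difference between the genotypes was 3.24 ± 1.2 (adjusted p = 0.34). The highest Kcnj10 values were in X2356 and X2386, the mice highest in Schwann cell markers. X2406, the next in these markers, had 12.6, and X2383, with a marker sum of 901.6, had 37.3. With Ang II in IKKβ-/- mice, 4 of the 5 markers had fold changes above 0, Sox10 being the 1 called, and S100b was at -0.63. The Kcnj10 call stayed with the neuron and Schwann cell score as a covariate. What part Schwann cell RNA had in it was not tested.

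The 5 calls in IKKβ-/- mice stood beside adipocyte markers, of which 3 of the 5 tested (Adipoq, Plin1 and Cidec) were called higher with Ang II. Their sum was 102.7 to 621.6 with saline and 674.6 to 10146 with Ang II, with no overlap. With the adipocyte score as a covariate none of the 5 was called. Kcnj2 then had a log2 fold change of -2.06 (adjusted p = 0.15), Kcns3 -1.42 (adjusted p = 0.249), Kcnj8 0.53 (adjusted p = 0.375) and Kcnab1 -0.22 (adjusted p = 0.679). Without X2384 and X2385, left out together after seeing the data, 2 were called, Kcnj2 (-1.74, adjusted p = 0.0685) and Kcnj10 (3.68, adjusted p = 0.0963). Kcns3 (-1.22, adjusted p = 0.126), Kcnj8 (0.61, adjusted p = 0.103) and Kcnab1 (-0.43, adjusted p = 0.164) then kept folds near those with all mice but missed the threshold. What part the adipocyte RNA had in these calls was not tested.

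The genotypes were compared within each treatment. With saline, 2 of the 42 genes were called (background 5.47%), Kcns3 higher in IKKβ-/- (background 3.4%) and Kcnc4 lower (background 2.07%). At an unadjusted p under 0.05 there were 5 (background 19.2%), and no gene separated the groups without overlap (background 8.76%). The log2 difference of Kcns3 was 1.14 ± 0.30 (adjusted p = 0.0589), and leaving out 1 mouse at a time lost the call for 6 mice (adjusted p up to 0.209). Kcnc4 encodes Kv3.4, a fast inactivating channel. It had 40.5, 55.8, 16.2 and 189.4 normalized counts in IKKβ-/- and 147.1, 354.9, 126.9, 312.4 and 146.7 in IKKβ+/+ mice with saline, with X2409 inside the IKKβ+/+ range. The log2 difference was -1.92 ± 0.58 (adjusted p = 0.086), and leaving out 1 mouse at a time lost the call for 9 mice (adjusted p up to 0.3). Kcnc4 was not called by edgeR (-1.46, adjusted p = 0.196) or DESeq2 (-1.51, adjusted p = 0.151). With Ang II Kcnc4 ran from 73 to 350.8 in IKKβ-/- and from 72.8 to 414.7 in IKKβ+/+ mice. In saline-infused mice the markers of other cells differed too, and 2 of the 5 macrophage markers were called lower in IKKβ-/- mice, with a sum of 1764 to 2844 against 3037 to 4370. All 6 endothelial, 5 fibroblast and 5 adipocyte markers tested also had fold changes below 0, with medians of -0.85, -0.49 and -2.11 and none called. In the other direction, 7 of the 8 smooth muscle and all 4 skeletal muscle markers tested had fold changes above 0. Their medians were 0.29 and 1.15, with none called. The endothelial sum was 11390 to 25094 in IKKβ-/- and 18603 to 32807 in IKKβ+/+ mice. With the endothelial score as a covariate, added after seeing the data, neither Kcns3 (0.86, adjusted p = 0.196) nor Kcnc4 (-1.90, adjusted p = 0.169) was called. What part the other markers had in these calls was not tested.

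With Ang II none of the 42 genes was called between the genotypes (background 0.128%), 3 had an unadjusted p under 0.05 (background 14.3%) and none separated the groups (background 1.54%). The 3 were Kcna2, Kcna5 and Kcnk5, all with higher means in IKKβ-/- mice. edgeR and DESeq2 called none either. Without X2356 the count rose to 3, Kcna1, Kcna2 and Kcna6, all higher in IKKβ-/- mice, with log2 differences of 1.54 (adjusted p = 0.0885), 1.60 (adjusted p = 0.0842) and 1.35 (adjusted p = 0.0854). X2386, the highest mouse for these genes, stayed in that fit. With X2356 and X2386 both left out, the count was 0, and the differences were 1.21 (adjusted p = 0.173), 1.18 (adjusted p = 0.15) and 1 (adjusted p = 0.153). The difference between the Ang II effects of the genotypes passed for none of the 42 genes (background 0%), nor with edgeR or DESeq2. At an unadjusted p under 0.05 there were 3 (background 11.1%), Kcng4, Kcnj10 and Kcnj8. Across the 42 genes the Ang II effects of the genotypes, which share no mice, had a Pearson r of 0.486 (0.289 over all genes tested, genes not being independent) and the same sign in 27 genes, or 64.3% (58.8% over all genes).

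Kcna1, Kcna2 and Kcna6 are Kv1 channels best known from nerve, and each was high in the same mice. Kcna2 reached 1415 normalized counts in X2386 and 841.4 in X2356, against 92.1 to 552.7 in the other 17 mice. Kcna1 was at 352.2 and 284.1 in these mice and at 25.3 to 146.9 in the others, and Kcna6 at 312.3 and 292.9 against 35.7 to 138.7. These were the mice highest in Schwann cell markers. X2406, the next in these markers, had 86.5 of Kcna1 and 311.7 of Kcna2, below X2380 (146.9 and 552.7). Its Kcna6 was 138.7, the highest of the other 17. Kcnq3, a subunit of the neuronal M current, and Kcnab2 (Kvβ2) stood out in X2356 only, at 415.7 and 142.6, where the neuron markers were high, and not in X2386 (59.1 and 54). Of the 22 genes below the minimum, Kcnt1 (81.2) and Kcnmb4 (51.6) also peaked in X2356.

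**Figure D4:**
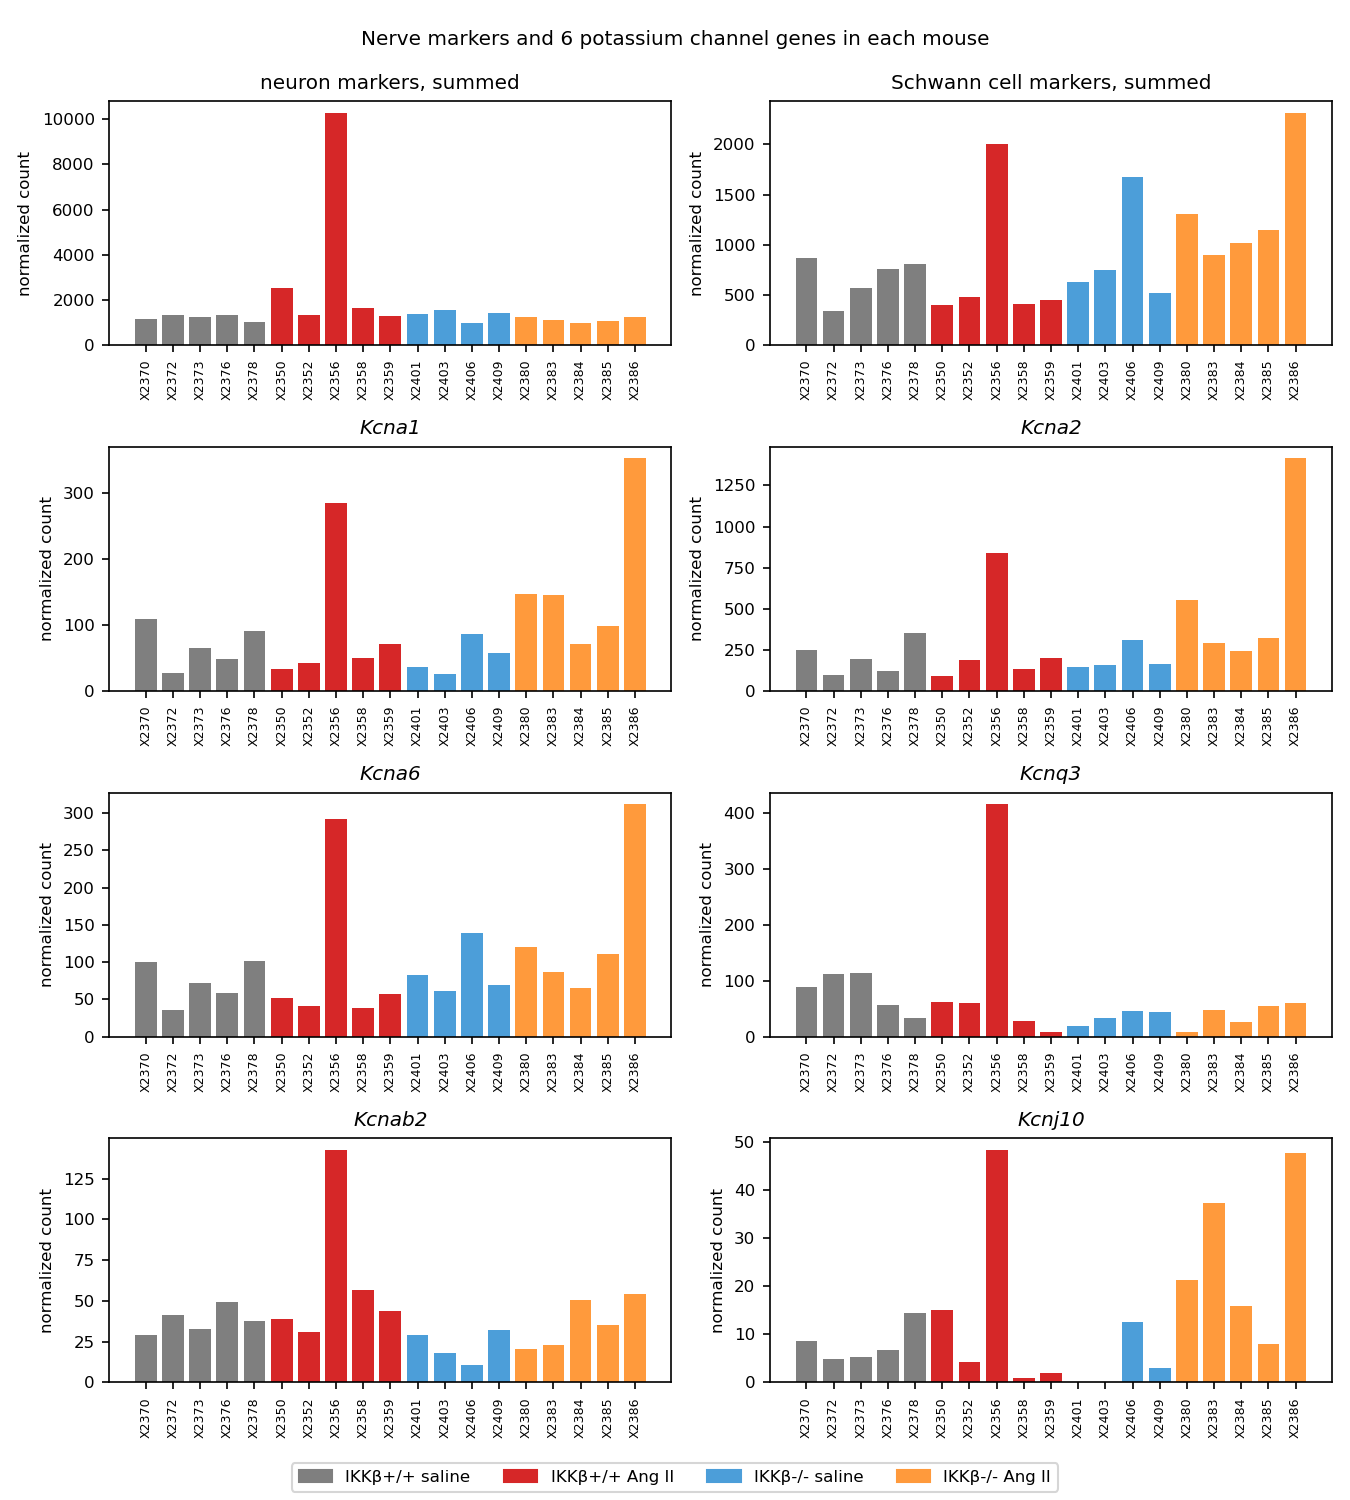
Summed normalized counts of 8 neuron markers and 5 Schwann cell markers, and the normalized count of 6 potassium channel genes, in each of the 19 mice, coloured by group. Kcna1, Kcna2, Kcna6 and Kcnj10 are highest in X2356 and X2386, and Kcnq3 and Kcnab2 are highest in X2356.

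The other voltage-gated genes passed in no comparison. Kcna5 (Kv1.5) ran from 79.7 to 399.9 normalized counts over the 19 mice, Kcnd3 (Kv4.3) from 120.4 to 756.7, Kcnd1 (Kv4.1) from 16 to 59.5, Kcnq5 (Kv7.5) from 37 to 150.2 and Kcnh1 from 5.14 to 56. Kcne4, the next auxiliary subunit per kb after Kcnab1, had group means of 639 to 769, and Kcnip4 of 64.2 to 109.1. Exons of Kcnip4 overlap 5730480H06Rik on the other strand (mean 170.7 normalized counts), so its values are uncertain, as are those of Kcnq1. Kcne3 had 43.8 ± 14.2 with saline and 23.1 ± 8.39 with Ang II in IKKβ+/+ mice, and 47.3 ± 23.1 and 24 ± 9.69 in IKKβ-/- mice, and its log2 fold changes of -0.91 (adjusted p = 0.164) and -0.95 (adjusted p = 0.208) missed the threshold. Kcnip3 had 46.1 ± 11.5 and 29.1 ± 6.09 in IKKβ+/+ mice, a change of -0.63 (adjusted p = 0.154). Kcng4, with 13.4 normalized counts on average, had the lowest log2 fold change of the 42 in IKKβ+/+ mice, -1.63 (adjusted p = 0.155). Summed over the class, the 7 auxiliary genes ran from 3966 to 4592 with saline and from 2721 to 3558 with Ang II in IKKβ+/+ mice with no overlap, and Kcnab1 made up the larger part.

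Among the remaining calcium-activated and Slo genes, Kcnt2 ran from 152.1 to 764.3 normalized counts and Kcnn1 from 18.2 to 101.5, and neither was called. Among the inward rectifiers, Kcnj15 (Kir4.2) ran from 109.9 to 600.9 and Kcnj12 (Kir2.2) from 7.93 to 56.6. Kcnj12 was not called in any comparison, and its group means were 22.1, 23.7, 40.6 and 25.1 in saline-infused and Ang II-treated IKKβ+/+ and saline-infused and Ang II-treated IKKβ-/- mice. The tandem-pore Kcnk6 (TWIK-2) held between 138.7 and 297.2 and the stretch-sensitive Kcnk2 (TREK-1) between 16.6 and 93.8. Kcnk5, Kcnk13 and Kcnk1 averaged 17.3, 15.2 and 9.58, close to the minimum, and were not called. The members just inside the minimum were Kcnab3 and Kcnk1, each with 7 mice at 10 or more. Just outside lay Kcng1, Kcnc2 and Kcnh8, each with 3 mice.

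**Figure D5:**
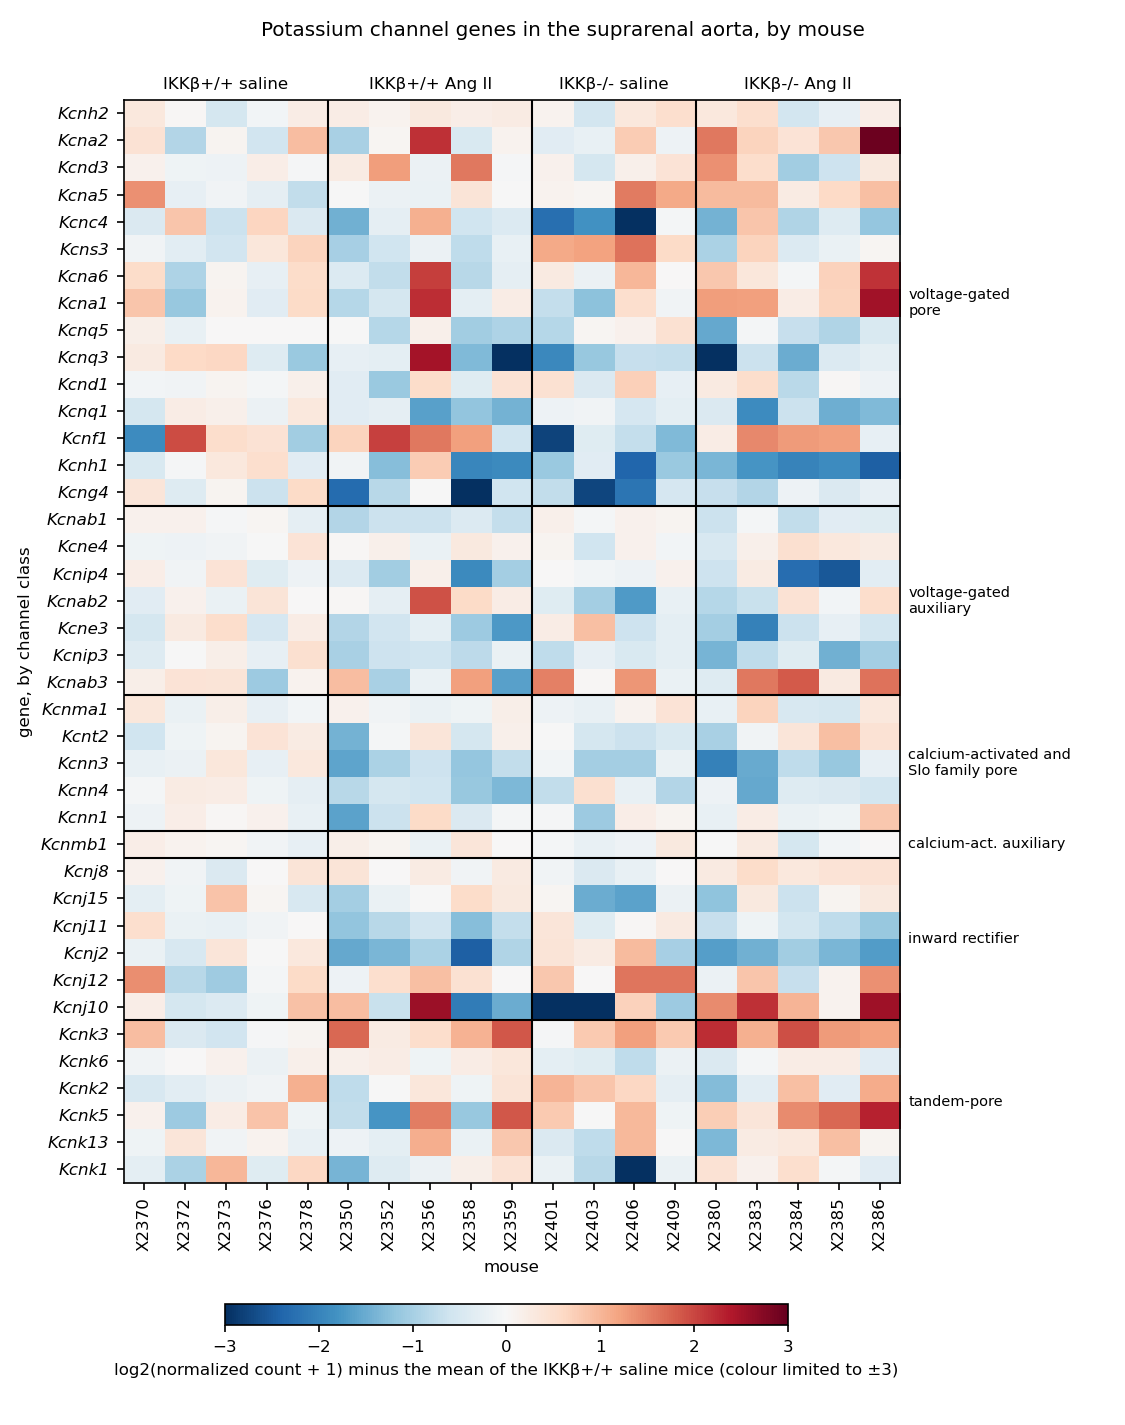
Each of 40 of the 42 genes (rows, by class) in each mouse (columns, by group), coloured by log2(normalized count + 1) minus the mean of the saline-infused IKKβ+/+ mice. The Ang II columns of both genotypes are blue for Kcnj2 and mostly blue for Kcnab1 and Kcnj11, the columns of X2356 and X2386 are red for Kcna1, Kcna2 and Kcna6, and Kcns3 is red in the saline-infused IKKβ-/- mice.

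Genes that act with these channels were counted from fixed lists. Of 30 calcium and other depolarizing channel genes tested, 4 were called with Ang II in IKKβ+/+ mice, or 13.3% against 8.66% of all genes. The T-type calcium channel Cacna1g (-0.65, adjusted p = 0.0713), the inositol trisphosphate receptor Itpr2 (-0.65, adjusted p = 0.0637) and the calcium channel subunit Cacna2d1 (-0.58, adjusted p = 0.0121) fell, and the cation channel Trpv2 rose (0.68, adjusted p = 0.0597). In IKKβ-/- mice 1 of the 30 (3.33% against 5.29%) was called, Cacna2d1 (-0.42, adjusted p = 0.0765). With saline 1 (3.33% against 5.47%) was called between the genotypes, Cacna1g lower in IKKβ-/- mice (-0.67, adjusted p = 0.0976). The medians of the 30 were -0.15, -0.09 and -0.14 in these comparisons, beside 0.01, 0 and -0.02 over all genes tested. Of the 3 partner subunits tested (Abcc9, Amigo1 and Lrrc55), the BK subunit Lrrc55 fell with Ang II in IKKβ-/- mice (-2.62, adjusted p = 0.0679) at a mean of 11.9 with saline and 3.30 with Ang II, and the Kv partner Amigo1 was lower in saline-infused IKKβ-/- than IKKβ+/+ mice (-0.56, adjusted p = 0.0587).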

How the data were processed

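RNA-seq of the suprarenal aorta of 19 mice was used. Per the sources, the authors made poly(A) stranded single-end libraries, trimmed reads with Trimmomatic 0.35, aligned them with STAR 2.7.1a to GRCm38 and normalized gene counts with DESeq2 1.30.1. RSEM is also named in the submitters' processing notes. Whether the counting used strand is not given in the sources used here. The deposited values are normalized counts (a signal, not raw counts). All of the deposited values (100%, tolerance 0.1) were whole multiples of 1 read, so reads were recovered for the count tests, with 11382573 to 19906694 reads on genes per mouse.

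Genes with at least 10 in at least 4 mice were tested with limma 3.58.1 (R 4.3.3) on log2(value + 1), all 4 groups in one fit, with Benjamini-Hochberg adjustment over 14845 genes, and called where the adjusted p was below 0.1 with more than a 1.2-fold change. The steps were tested on simulated data. Alternatives were a pseudocount of 4, no filter, the compared groups alone, quality weights, TMM, edgeR 4.0.16, DESeq2 1.42.0, thresholds of 0.05 and 1.5, marker scores as covariates and each mouse left out. Levels per kb used the merged length of all annotated exons of GRCm38 genes. Named were members called or not overlapping in any comparison, the 3 highest of each class, and known vascular channels. The members and lists were chosen with earlier results of these data known. Some genes that this choice names are not reported here.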

Additional observations from a re-analysis of the deposited data

Results flagged for a closer look

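In 15 of 168 groups of mice examined (42 genes in 4 groups), 1 mouse lay further from the rest than Dixon's 95% limit. For normally distributed values chance flags about 1 in 20 groups, or 8.4. The limit was applied to normalized counts, not to their logarithm, and every flagged mouse was the highest of its group. The 8.4 is therefore only a rough guide. The genes of a mouse are not independent. Of the 15, 6 were in X2356, 3 in X2386, 2 each in X2378 and X2370, and 1 each in X2406 and X2383.

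Among Ang II-treated IKKβ+/+ mice, X2356 had 841.4 normalized counts of Kcna2 (92.1 to 197.8 in the others), 414.7 of Kcnc4 (72.8 to 163.3), 292.9 of Kcna6 (38.2 to 56.7), 284.1 of Kcna1 (33.2 to 71.6), 415.7 of Kcnq3 (7.95 to 61.1) and 142.6 of Kcnab2 (31.0 to 56.4). Among Ang II-treated IKKβ-/- mice, X2386 had 1415 of Kcna2 (242.0 to 552.7), 312.3 of Kcna6 (65.5 to 120.1) and 352.2 of Kcna1 (70.8 to 146.9). In the same group X2383 had 350.8 of Kcnc4 (73.0 to 150.9). The saline-infused IKKβ-/- mouse X2406 had 311.7 of Kcna2 (143.8 to 164.0).

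Among saline-infused IKKβ+/+ mice, X2370 had 351.4 of Kcna5 (79.7 to 125.1) and 98.5 of Kcnj11 (59.0 to 70.1), and X2378 had 899.8 of Kcne4 (610.5 to 670.3) and 90.1 of Kcnk2 (30.6 to 39.9). Without X2370 the call of Kcnj11 in IKKβ+/+ mice held.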

How the results depend on the processing

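With Ang II in IKKβ+/+ mice, the 7 genes called became 1 with the smooth muscle score as a covariate and 4 at an adjusted p under 0.05. Leaving out 1 mouse gave 3 to 9, with 3 without X2350, X2358 or X2373 and 4 without X2359, X2372, X2376 or X2378. In IKKβ-/- mice the 5 became 3 with only the groups compared, 8 with DESeq2, 0 with the adipocyte score as a covariate and 2 without X2384 and X2385 together. Leaving out 1 mouse gave 3 (X2401) to 8 (X2383). Between the genotypes with saline the 2 became 4 with quality weights or the smooth muscle score, 1 (Kcns3, with Kcnc4 lost) with edgeR, DESeq2, the adipocyte score or without X2384 and X2385, and 0 with the endothelial score or at an adjusted p under 0.05. Leaving out 1 mouse gave 0 to 2, with 0 without X2372, X2373, X2401, X2403 or X2406. It gave 1 (Kcns3) without X2352, X2376 or X2378. Without X2370 both Kcns3 and Kcnc4 were lost and 1 other gene was called higher. With Ang II the 0 became 3 without X2356 (0 to 3 over left-out mice) and was 0 without X2356 and X2386 together. The difference of the Ang II effects stayed at 0. The causes were not tested. Of the 14 calls, 6 held without each of the 19 mice, and the 14 fold changes kept their sign in every alternative run. Ikbkb was 21.9% to 26.3% lower with 1 mouse left out. The pairs of mice left out and the endothelial score were chosen after seeing the data. No paired analysis was possible because each mouse has a number of its own. Genes near 10 normalized counts rest on few reads, since 1 read was worth 0.666 to 1.80.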
